A study of Mus musculus with 4 samples.

Results

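The 10 long noncoding RNAs described here comprise 3 nuclear transcripts, Malat1, Neat1 and Meg3, and 7 transcripts that host small nucleolar RNAs (snoRNAs) in their introns, Gas5, Snhg1, Snhg3, Snhg5, Snhg6, Snhg8 and Snhg12. They were taken by symbol from the 47069 genes of the files, and all 10 were matched to an Ensembl identifier. The cells were HT22, an immortalised mouse hippocampal neuronal line labelled as strain C57BL/6, and all 4 libraries came from adenovirus-infected cells, so no uninfected cells were measured. The 4 groups, each of 1 library of total RNA, were control adenovirus in normal culture, adenovirus labelled as a knockdown of the long noncoding RNA AK046375 in normal culture, control adenovirus in oxygen-glucose deprivation (OGD), and the knockdown-labelled adenovirus in OGD. Virus was added 2 h after seeding, and OGD meant glucose-free medium under nitrogen for 6 h. The series title speaks of overexpression of AK046375 while the library labels speak of knockdown, and its level was not analysed here, so all directions are those of libraries labelled as knockdown. With 1 library per group, no difference has a replicate check and no test between conditions was made.

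Malat1 is retained in nuclear speckles, bodies rich in splicing factors. Neat1 is the scaffold of paraspeckles, nuclear bodies that assemble on its long isoform, and Meg3 is an imprinted transcript expressed from the maternal allele. SnoRNAs guide the chemical modification of ribosomal RNA, and many are cut from the introns of transcripts whose spliced exons carry no long reading frame. The spliced exons of several such hosts, Gas5 among them, are degraded by nonsense-mediated decay when they are translated, and start with a pyrimidine tract (a TOP sequence) that places their translation under control of the growth regulator mTOR.

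The start regions of 4 hosts are shown because a TATA box and a start within a pyrimidine tract are features described for snoRNA hosts. They are RefSeq sequences of build GRCm38.p6, from 40 bases before the annotated first base to 20 bases from it, written in the direction of transcription. Capitals mark TATAAA or TATATA in the 25 bases that end 16 bases before the start, and a C followed by at least 4 letters that are each C or T, beginning within 5 bases of the start on either side.
Gas5: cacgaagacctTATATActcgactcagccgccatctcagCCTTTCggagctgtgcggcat
Snhg8: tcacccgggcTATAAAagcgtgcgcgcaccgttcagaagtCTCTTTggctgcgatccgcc
Snhg12: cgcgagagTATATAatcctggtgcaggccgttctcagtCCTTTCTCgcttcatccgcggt
Snhg3: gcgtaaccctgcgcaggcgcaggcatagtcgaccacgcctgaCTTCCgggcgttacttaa
These windows lie at chr1:161035126-161035185 (plus strand), chr3:123508317-123508376 (minus), chr4:132308638-132308697 (plus) and chr4:132353667-132353726 (minus), in the order shown. Gas5, here at the downstream of its 2 annotated starts, Snhg8 and Snhg12 held both features, as did 1 of the 2 annotated starts of the nuclear transcript Meg3 and 0.575% of the 32851 promoters of the table, so the pair was not found in hosts alone. Snhg3 held the tract only, Snhg5 the TATA letters only, and Snhg1 and Malat1 neither. The TATA letters were found in 2.73% and the pyrimidine tract in 18.3% of all promoters, those with both included, searched on the transcribed strand.

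Promoters of 3 further members are shown in full, 250 bases before to 50 after the start, since these transcripts had higher levels in OGD in both comparisons, as described below. Capitals mark ACGTG on either strand, a form of the core, written ACGTG or GCGTG, of the element that hypoxia-inducible factors bind. The form GCGTG was not searched for. The motif ACGTG was looked up after the values were seen, and overlapped no TATA match.
Malat1: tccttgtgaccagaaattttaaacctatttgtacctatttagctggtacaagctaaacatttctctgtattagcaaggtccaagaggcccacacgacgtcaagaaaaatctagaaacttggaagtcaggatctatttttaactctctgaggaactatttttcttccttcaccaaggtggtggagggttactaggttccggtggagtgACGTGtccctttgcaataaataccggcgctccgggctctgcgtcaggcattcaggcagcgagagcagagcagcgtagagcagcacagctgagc
Snhg1: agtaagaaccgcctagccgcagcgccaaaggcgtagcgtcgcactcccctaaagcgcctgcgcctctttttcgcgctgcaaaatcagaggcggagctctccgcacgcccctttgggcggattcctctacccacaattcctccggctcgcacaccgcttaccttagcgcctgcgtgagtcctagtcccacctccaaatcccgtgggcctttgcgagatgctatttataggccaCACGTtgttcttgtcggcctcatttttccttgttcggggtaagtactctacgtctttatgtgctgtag
Snhg5: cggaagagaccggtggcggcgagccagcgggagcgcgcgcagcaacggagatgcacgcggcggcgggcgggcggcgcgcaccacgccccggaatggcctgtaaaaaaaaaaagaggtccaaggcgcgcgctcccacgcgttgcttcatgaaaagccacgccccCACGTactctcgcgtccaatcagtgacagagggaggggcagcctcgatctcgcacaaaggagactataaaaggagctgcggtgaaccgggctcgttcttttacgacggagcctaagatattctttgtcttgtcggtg
They lie at chr19:5802623-5802922 (minus strand), chr19:8723237-8723536 (plus) and chr9:88522848-88523147 (minus). Each held 1 match, and 19.6% of all promoters of this length held at least 1. No ACGTG was found in the promoter windows of Gas5, Snhg3, Snhg8, Snhg12 or Meg3, but absence of ACGTG is not absence of the core. The motif and the promoters shown were chosen with the values known, so this split between members was not a test. A match is a description of letters and not of binding, and Neat1 and Snhg6 were not searched.

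In the GENCODE M21 annotation of GRCm38, the build named mm10 in the submitters' processing notes, Malat1 spans 5795690 to 5802672 and Neat1 5824708 to 5845478 on the minus strand of chromosome 19. Meg3 spans 109541001 to 109571726 on chromosome 12. Among the hosts, Gas5 lies on chromosome 1 at 161034422 to 161038539 and holds 9 snoRNA loci, and Snhg1 lies on chromosome 19 at 8723475 to 8726443 and holds 8. Snhg12 (chromosome 4, 132308623 to 132311024) holds 4 loci. Snhg3 (chromosome 4, 132348014 to 132353686) and Snhg5 (chromosome 9, 88521050 to 88522929) hold 2 each, and Snhg6 (chromosome 1, 9941959 to 9944118) and Snhg8 (chromosome 3, 123507552 to 123508404) hold 1 each. The libraries, made from RNA broken to about 200 bases, measured the host transcripts and not the snoRNAs. The host values pool all annotated isoforms, among them an Snhg8 transcript of 1 exon and 776 nt. The files hold 29 gene records at these loci, since Snord80 in Gas5 and Snora16a in Snhg12 each have 2 overlapping records, and 1 record typed as a snoRNA in Gas5 carries the microRNA name Mir5117. The effective length, by which counts are scaled to FPKM, was 0 for all records but those of Snora73a, Snora73b and Snora16a. A count of 0 therefore does not show that a snoRNA was absent. Of the 29 records, 26 had 0 expected counts in all 4 libraries. The rest were Snora73a and Snora73b inside Snhg3, each 205 bases long with 20 and 15 counts summed over the libraries, and Snord22 inside Snhg1 with 2.

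Expected counts, the authors' estimates of reads per gene, summed to between 23327743 and 27539845 per library. The 10 transcripts took 0.0436% of them in the control library and 0.0521% in the labelled-knockdown library in normal culture, against 0.142% and 0.127% in OGD. The libraries also differed over all genes: transcript length, averaged over all counts, came to 1835 nt in the control and 1545 nt in the labelled-knockdown library in normal culture, and to 1815 and 2153 nt in OGD. Of 12 neuronal markers, 7 had 0 counts in both normal libraries and 8 in both OGD libraries, Rbfox3, Snap25 and Dcx among them, and the summed level of the list was 42.9 and 39.3 FPKM in normal culture against 7.78 and 9.25 in OGD. Tubb3, a neuronal tubulin gene, made up most of that sum, so the neuronal label rested on few of its markers. Summed levels over the 4 libraries were 900 to 4711 FPKM for 4 progenitor markers, nearly all from Vim, and 252 to 493 for 5 fibroblast markers, mostly from Col1a1. They were 22.7 to 56.7 FPKM for 6 microglial markers, nearly all from Tmem119 (20.1 to 55.1 FPKM). No other microglial marker stood above 2.20 FPKM, the level of Csf1r in the control OGD library. The sums were 1.55 to 3.74 for 5 astrocyte markers and at most 0.91 for 6 oligodendrocyte and 3 endothelial markers. The part of these differences in the results below was not tested, and in bulk RNA fewer cells of a type and less RNA per cell cannot be told apart.

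Levels are given in FPKM, counts scaled by effective transcript length and by the library's total count, and so can be compared between genes. Gas5, a transcript named for its accumulation in growth-arrested cells, was the most abundant of the 10 in every library. It stood at 413 FPKM in the control and 453 in the labelled-knockdown library in normal culture, and at 555 and 340 in OGD. At least 98.9% of all genes in the files had a lower level in each library. In the control library in normal culture the order after Gas5 was Snhg1 (110 FPKM), Snhg8 (103), Snhg12 (62.8), Snhg3 (44.3), Neat1 (35.8), Snhg6 (20.2), Snhg5 (18.9) and Malat1 (7.38). Counting intervals overlapped for Snhg1 and Snhg8 and for Snhg6 and Snhg5, so these neighbours were not distinguished at this depth. In OGD Neat1 stood in the third place in both libraries, and Malat1 stood in the fourth with the knockdown-labelled virus, at 75.4 FPKM. Snhg6 had the lowest level of the 9 detected transcripts in both OGD libraries, although its interval overlapped that of Snhg3 with the control virus. The order at the top was close in control OGD, where Snhg1 (183 FPKM) and Neat1 (178) had overlapping intervals.

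**Figure D1:**
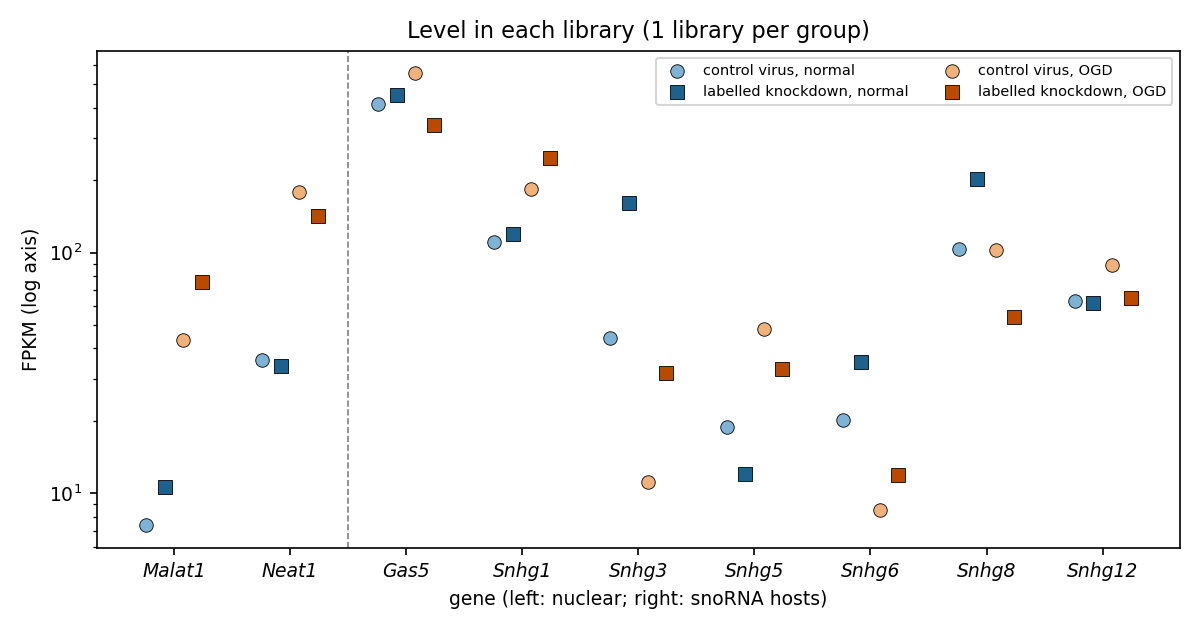
Level of the 9 detected transcripts in each of the 4 libraries, in FPKM on a log axis, with 1 point per library; Meg3, listed at 0 in every library, is left out. Malat1 and Neat1 are higher in both OGD libraries than in both normal libraries, as are Snhg1 and Snhg5, while Snhg3 and Snhg6 are lower.

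Meg3 was not detected. It had 0 expected counts in all 4 libraries, which allows a level of at most 0.0461 and 0.0514 FPKM in normal culture, control before labelled knockdown, and 0.0435 and 0.0514 FPKM in OGD at 3 counts. Its imprinted neighbours of the Dlk1-Dio3 locus were also near 0: Rtl1 and Rian had 0 counts throughout, and Dlk1, Mirg and Dio3 had at most 1 count in any library. Meg3 is therefore out of all comparisons below, and the nuclear transcripts are represented by Malat1 and Neat1. The other 9 passed the filter of 1 FPKM, averaged over the libraries, that left 12255 genes to compare.

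The comparison of OGD with normal culture asked how these transcripts stand in cells deprived of oxygen and glucose, and it was made once for each virus with no library in common. Differences are log2 ratios of FPKM + 1 and folds of FPKM with 95% counting intervals in brackets, which cover counting error of the pair of libraries only. Reads copied by PCR and carrying no molecular identifiers do not each stand for a molecule of their own. With the control virus, 3 of the 9 detected transcripts were at least 2-fold higher in OGD and 2 were at least 2-fold lower, where 11.6% of all genes compared were higher and 24.3% lower. With the knockdown-labelled virus 4 were higher and 3 lower, where 33.4% of all genes were higher and 20.9% lower. The second background is so wide that a ratio past 2-fold there was common for any gene.

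Both detected nuclear transcripts were higher in OGD. In normal culture Malat1 had 604 expected counts with the control virus and 658 for the labelled knockdown, and in OGD it had 3891 and 6450. Its level was 7.38 and 10.7 FPKM in normal culture and 43.3 and 75.4 FPKM in OGD, so that the culture conditions did not overlap. The fold was 5.87 [5.39 to 6.41] with the control virus and 7.07 [6.52 to 7.67] for the labelled knockdown. Of the genes compared, 98.6% and 96.5% had a lower log2 ratio than Malat1 in these comparisons.

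Neat1 had 3215 and 3089 counts in the normal libraries and 23778 and 15743 in the OGD libraries. Its level was 35.8 and 33.9 FPKM in normal culture and 178 and 141 FPKM in OGD, again without overlap. The fold was 4.96 [4.78 to 5.15] with the control virus and 4.16 [4.01 to 4.33] for the labelled knockdown. By counts alone, without division by length, it was 6.98 and 5.10, because the deposited mean transcript length of Neat1 was greater in OGD. That length was 3653 and 4106 nt in normal culture and 5062 and 4978 nt in OGD. The 3 Neat1 transcripts in the files measure 20771, 3004 and 1030 nt in GENCODE. If the deposited length is the mean over these 3 weighted by their abundance, the long transcript, the form known to build paraspeckles, made up between 3.65 and 13.3% of Neat1 molecules in the control and 6.20 to 15.6% in the labelled-knockdown library in normal culture. In OGD it made up at least 11.6% and 11.1%, and at most 20.4% in either library. The ranges of the 2 culture conditions overlap, so these lengths do not fix a difference in isoform share.

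**Figure D2:**
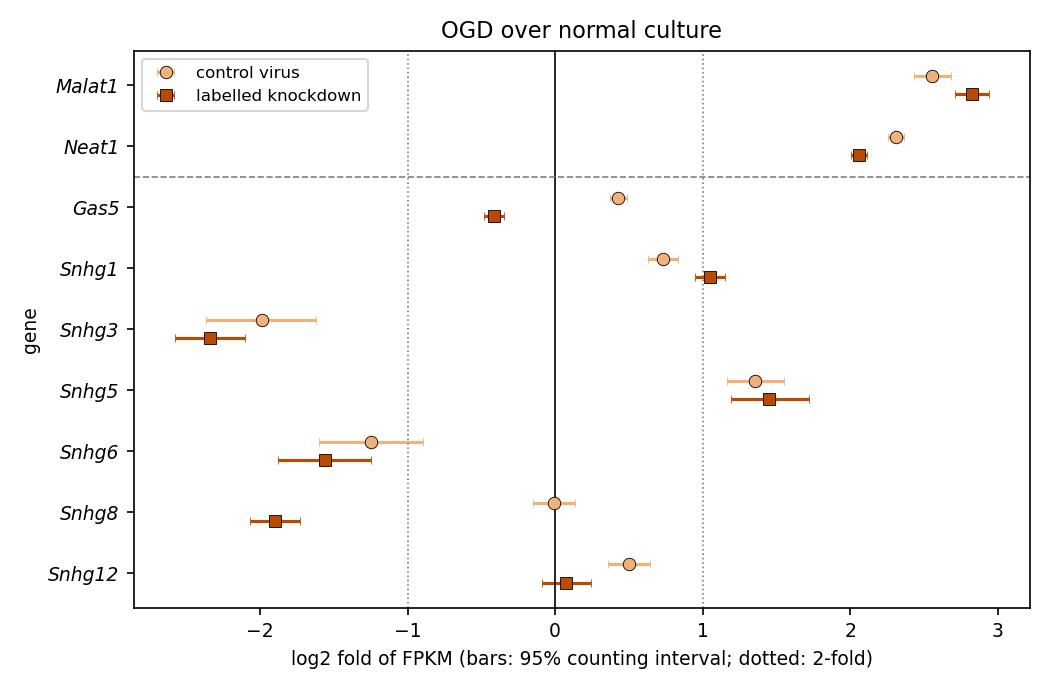
Log2 fold of FPKM, OGD over normal culture, of the 9 detected transcripts for the control virus (circles) and the labelled knockdown (squares), with 95% counting intervals. Malat1, Neat1 and Snhg5 lie past 2-fold higher and Snhg3 and Snhg6 past 2-fold lower with both viruses, while Gas5 has opposite signs.

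The snoRNA hosts did not move as a group in OGD. Snhg5, which hosts Snord50a and Snord50b, was higher with both viruses. It stood at 18.9 and 12.0 FPKM in normal culture and at 48.3 and 32.8 FPKM in OGD, with no overlap, and its fold was 2.56 [2.24 to 2.93] with the control virus and 2.73 [2.28 to 3.29] for the labelled knockdown. Snhg1, the host with 8 snoRNA loci, stood at 110 and 119 FPKM in normal culture and at 183 and 246 in OGD. Its fold was 1.66 [1.54 to 1.78] and 2.07 [1.92 to 2.22] in FPKM, and 2.19 and 2.20 by counts, since its mean length was also greater in the OGD libraries. With the control virus, Snhg1 passed 2-fold under the alternatives of CPM (counts scaled by the library total only), CPM with TMM scaling and median-of-ratios scaling. With the knockdown-labelled virus it was inside 2-fold under TMM and median-of-ratios scaling, the lowest log2 ratio being 0.69.

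Snhg3 and Snhg6 were lower in OGD with both viruses. Snhg3, host of the snoRNAs Snora73a and Snora73b, stood at 44.3 and 160 FPKM in normal culture and at 11.2 and 31.8 FPKM in OGD. It was 3.96-fold lower [3.07 to 5.14] with the control virus and 5.05-fold lower [4.29 to 5.97] for the labelled knockdown, on 81 and 178 counts in the OGD libraries. All 4 Snhg3 levels differed, and both OGD levels lay under both normal levels. Snhg6, host of Snord87, stood at 20.2 and 35.2 FPKM in normal culture and at 8.52 and 12.0 FPKM in OGD, a 2.37-fold [1.86 to 3.03] and a 2.95-fold [2.37 to 3.68] lower level. By counts Snhg6 was 1.89-fold lower with the control virus, inside 2-fold, and after removal of the length trend its log2 ratio with the knockdown-labelled virus was -0.26.

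Gas5, Snhg8 and Snhg12 differed between the viruses in their OGD ratios. Gas5 was 1.34-fold higher [1.29 to 1.40] in OGD with the control virus and 1.33-fold lower [1.27 to 1.40] for the labelled knockdown. The lower value turned to a higher one after rescaling to equal library sums (log2 ratio 0.10) and after removal of the length trend (0.85). Snhg8, host of Snora24, stood at 103 FPKM in both control libraries, a fold of 0.995 [0.901 to 1.10] that was not detectable as a difference at this depth. With the knockdown-labelled virus it stood at 202 FPKM in normal culture and 54.1 in OGD, 3.72-fold lower [3.32 to 4.18], and its log2 ratio moved from -1.88 to -0.67 after removal of the length trend. Snhg12, with 4 snoRNA loci, stood at 62.8 and 61.5 FPKM in normal culture and at 88.8 and 64.8 in OGD. Its fold was 1.41 [1.28 to 1.56] with the control virus and 1.05 [0.940 to 1.18] for the labelled knockdown, the second within counting error. After removal of the length trend these log2 ratios were 0.17 and 1.30, so that the second was the larger and past 2-fold.

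Set beside each other, the nuclear transcripts and the hosts had medians far apart in OGD. With the control virus the median log2 ratio was 2.34 for the 2 nuclear transcripts and 0.43 for the 7 hosts, and -0.25 for all genes. With the knockdown-labelled virus it was 2.37, -0.41 and 0.32. On the deposited FPKM every host had a lower log2 ratio than Malat1 and Neat1 in both comparisons, the highest host being Snhg5 at 1.31 and 1.38. The hosts are short, between 419 and 818 nt of deposited length, and Malat1 and Neat1 long, and with the knockdown-labelled virus the ratios of all genes ran with length. The running median of genes of similar length was 1.08 at the length of Malat1 and 1.13 at that of Neat1, against -0.86 to -0.94 at the lengths of the hosts. With this trend removed the host median minus the nuclear median was -0.73 in place of -2.78, and with the control virus it was -2.24 in place of -1.92. The order of the classes did not hold after the removal with the knockdown-labelled virus, where Snhg5 (2.61) and Snhg1 (2.29) lay above Malat1 (1.95), and Snhg12 (1.30) lay above Neat1 (1.21). With the control virus it held, with Malat1 at 2.44, Neat1 at 2.25 and the highest host, Snhg5, at 1.19.

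**Figure D3:**
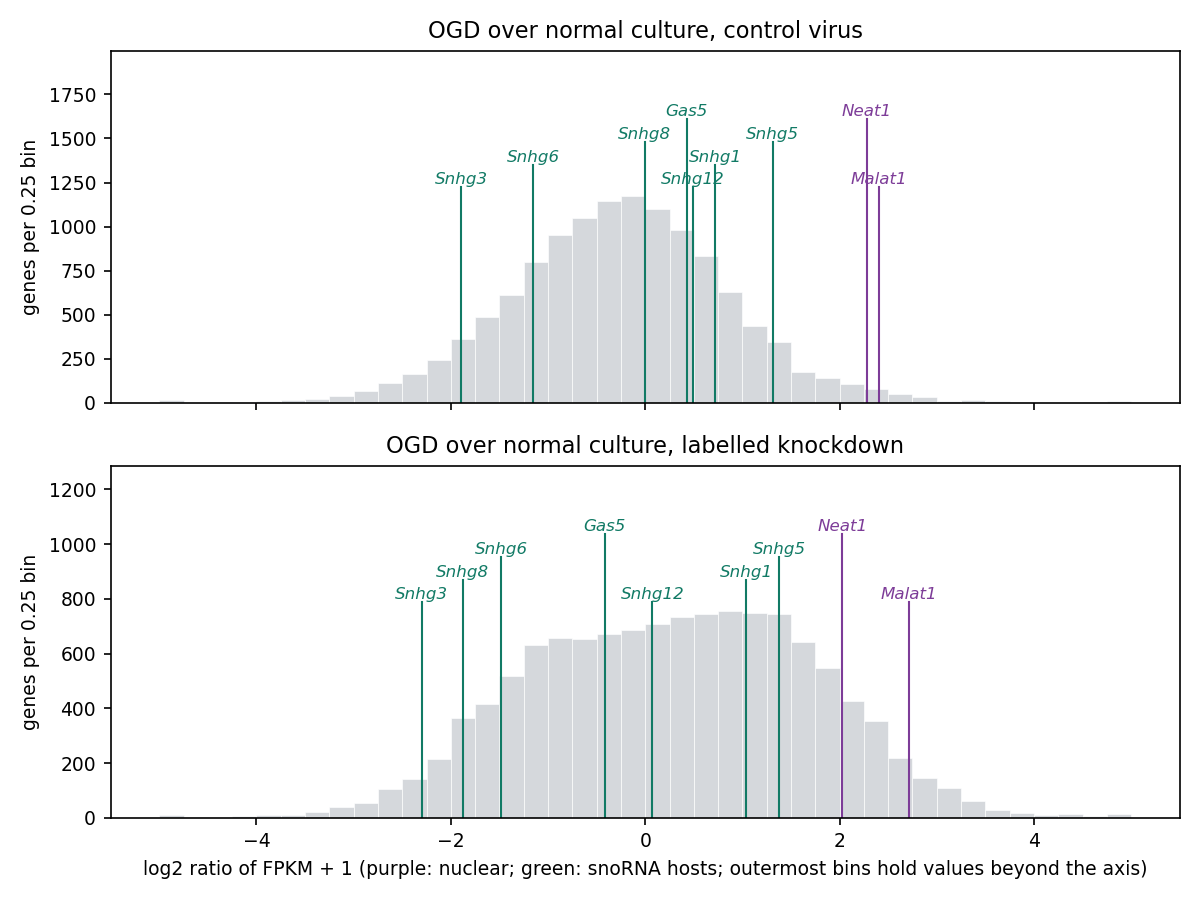
Number of genes by log2 ratio of FPKM + 1, OGD over normal culture, for the 12255 genes compared, with each detected transcript as a vertical line. Malat1 and Neat1 lie in the upper tail with the control virus, while the distribution with the knockdown-labelled virus is wider and the 7 hosts are spread across both.

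The labelled knockdown was compared with the control virus in normal culture to ask how these transcripts stand when AK046375 is targeted without deprivation. Of the 9 detected transcripts 1, Snhg3, was at least 2-fold higher and 0 were lower, where 4.67% of all genes were higher and 13.9% lower. Snhg3 had 865 against 255 counts and stood at 160 against 44.3 FPKM, 3.62-fold higher [3.14 to 4.18], with a log2 ratio above that of 99.7% of the genes compared. In the authors' deposited table for normal culture, which lists 1342 genes, Snhg3 was the only one of the 10 and had a log2 fold change of 2.19 with an adjusted p of 0.505. Snhg8 was just inside the 2-fold limit at 1.96-fold [1.79 to 2.14], with 1335 against 773 counts. Snhg6 was 1.74-fold higher [1.45 to 2.11] and Malat1 1.44-fold higher [1.29 to 1.62]. After removal of the length trend the log2 ratios of these 2 were 0.03 for Snhg6 and 0.78 for Malat1. Snhg5 was 1.57-fold lower [1.29 to 1.91], at 12.0 against 18.9 FPKM.

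The most abundant host and the other transcripts were near equal in these libraries. Gas5 was 1.10-fold higher [1.05 to 1.15], and its direction turned after rescaling to equal library sums (-0.19 on the log2 scale) and after removal of the length trend (-0.61). Neat1 was 1.06-fold lower [1.00 to 1.11] in FPKM and 1.07-fold higher by counts, and its log2 ratio ranged from -0.39 to 0.36 over the alternatives. For Snhg1, with a fold of 1.08 [0.993 to 1.17], and Snhg12, with 0.979 [0.875 to 1.10], a difference was not detectable at this depth. The median log2 ratio was 0.13 for the hosts, 0.20 for Malat1 and Neat1 and -0.27 for all genes, and the running median at the lengths of the hosts was 0.46 to 0.49.

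In OGD the same comparison gave Snhg3 as the only detected transcript at least 2-fold higher and 0 at least 2-fold lower, where 16.2% of all genes were higher and 2.28% lower. Snhg3 stood at 31.8 against 11.2 FPKM, 2.83-fold higher [2.17 to 3.73], on 178 against 81 counts. It was inside 2-fold with TMM scaling of counts (log2 ratio 0.92). Malat1 was 1.74-fold higher [1.67 to 1.81], Snhg6 1.40-fold higher [1.07 to 1.84] and Snhg1 1.35-fold higher [1.27 to 1.42]. The Snhg1 ratio was -0.09 with TMM scaling. Snhg8 was 1.89-fold lower [1.68 to 2.14], at 54.1 against 103 FPKM, with 381 against 835 counts. Gas5 was 1.63-fold lower [1.57 to 1.71], Snhg5 1.47-fold lower [1.31 to 1.65], Snhg12 1.37-fold lower [1.24 to 1.52] and Neat1 1.26-fold lower [1.23 to 1.28]. None of the 10 was in the authors' deposited table for OGD, which lists 219 genes. The median log2 ratio was -0.45 for the hosts and 0.23 for Malat1 and Neat1, with 0.26 for all genes. The running median at the lengths of the hosts was -0.47 to -0.53, and after removal of the length trend the ratios of Gas5, Snhg5 and Snhg12 turned to 0.08, 0.18 and 0.34.

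**Figure D4:**
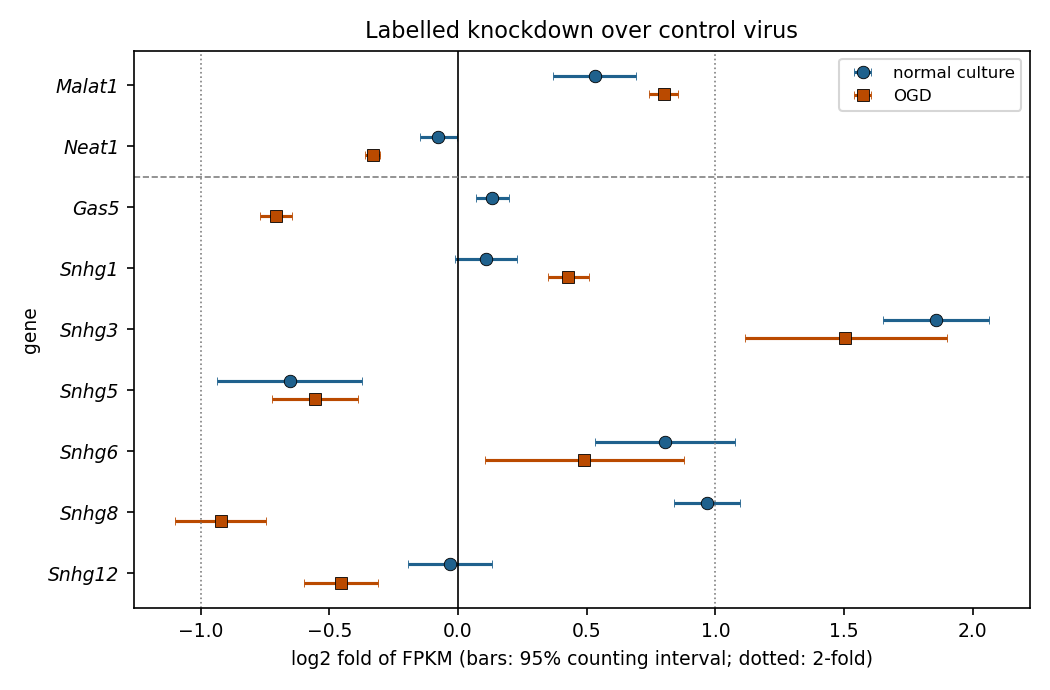
Log2 fold of FPKM, labelled knockdown over control virus, of the 9 detected transcripts in normal culture (circles) and in OGD (squares), with 95% counting intervals. Snhg3 lies past 2-fold higher in both culture conditions, and Gas5 and Snhg8 lie above 0 in normal culture and below 0 in OGD.

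Some transcripts kept their side between the culture conditions and others did not. On the deposited FPKM, Snhg3, Snhg6 and Malat1 were higher and Snhg5 was lower with the knockdown-labelled virus in both. The ratio of the OGD fold to the normal fold was 0.783 [0.581 to 1.05] for Snhg3, 0.804 [0.586 to 1.11] for Snhg6 and 1.07 [0.855 to 1.33] for Snhg5, all within counting error of 1. For Malat1 it was 1.20 [1.07 to 1.35], for Snhg1 1.25 [1.13 to 1.38] and for Neat1 0.839 [0.795 to 0.885]. Snhg8 was the furthest from 1, at 0.270 [0.232 to 0.314], followed by Gas5 at 0.558 [0.525 to 0.593] and Snhg12 at 0.746 [0.643 to 0.865]. These intervals too hold counting error only. Each comparison of viruses shares a library with each comparison of cultures, so their ratios are not independent of each other.

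Several members share sequence or a start region with other genes, and the sources used here do not say whether the authors counted by strand. Rcc1 overlaps Snhg3 over 5592 bases on the same strand, so the authors' counting could split reads between them, and its level is uncertain in that respect. Rcc1, which encodes a chromatin-bound exchange factor, stood at 48.6 and 43.7 FPKM in normal culture and 47.5 and 56.2 in OGD, without the differences of Snhg3. Gm17300, on the opposite strand within Snhg3, had 75 and 250 counts in normal culture and 172 and 143 in OGD. Gm37376, on the opposite strand within Malat1, had 7 and 10 counts in normal culture and 109 and 110 in OGD, and reads of the pair could not be told apart without strand. Snhg1 starts 106 bases from Slc3a2, which is read in the opposite direction and encodes the heavy chain of amino acid transporters. Slc3a2 was also higher in OGD, at 320 and 392 FPKM in normal culture against 843 and 877, log2 ratios of 1.40 and 1.16. Zbtb37, whose start lies 427 bases from that of Gas5 and which overlaps it by 428 bases on the opposite strand, had at most 0.47 FPKM in any library.

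The genes with the most similar profile were sought by the Euclidean distance of centred log2(FPKM + 1) values over the 4 libraries, among 7561 genes. Closest to Malat1 were Stag1 (distance 0.209) and Birc6 (0.220), and closest to Neat1 were Ptcd3 (0.175) and Fbln2 (0.178). The smallest distance was that of Snhg8 to Rps14, a gene of the small ribosomal subunit, at 0.0385, and its next was Mrpl23 (0.0664). Rps14 stood at 3486 and 6603 FPKM in normal culture and at 3364 and 1836 in OGD. Gas5 was closest to Jmjd8 (0.0778) and Kcnn4 (0.0903), Snhg1 to Acot2 (0.0750) and Hnrnpd (0.0776), and Snhg12 to E2f4 (0.0882) and Nutf2 (0.0983). Snhg5 was closest to Aatf (0.115) and Psmc2 (0.142), and Snhg6 to Chst7 (0.137) and Dolpp1 (0.151). Snhg3 had no close neighbour, with Clec2d at 0.942 and Cks2 at 0.957. With 4 libraries many genes share a profile, so these distances are a description.

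The protein partners of these RNAs were described with the same ratios, OGD over normal culture. Of 15 paraspeckle proteins, 2 were at least 2-fold higher and 1 lower with the control virus and 10 higher and 0 lower with the knockdown-labelled virus, with medians of 0.24 and 1.63. Taf15, an RNA-binding protein of the FET family, stood at 2.42 and 2.63, and Nono and Pspc1, core paraspeckle proteins that bind Neat1, at -0.97 and 2.20 and at 0.61 and 2.52. Nono was thus just inside 2-fold with the control virus, and it had 89.6 FPKM in the normal library labelled knockdown against 418 in the normal control library. The 1 lower member with the control virus was Nudt21 at -1.48, named here after its values were seen. Of 12 nuclear speckle and Malat1-binding factors, 4 and 8 were higher and 0 lower, with medians of 0.48 and 1.62, led by the splicing factor gene Srsf2 at 2.18 and 1.73 and by Son at 1.18 and 3.04. Of 18 snoRNP core and assembly genes, 7 were higher with each virus and 0 and 2 lower, with medians of 0.39 and 0.31. Nop56, a core protein of box C/D particles and itself a snoRNA host, stood at 2.85 and 2.34, from 132 and 148 FPKM in normal culture to 956 and 752 in OGD. All-gene medians were -0.25 and 0.32 in these comparisons, and of all genes 11.6% and 33.4% were higher and 24.3% and 20.9% lower. The share of snoRNP genes higher with the knockdown-labelled virus was thus near that of all genes. The length trend described above for this virus was not removed from the ratios of these lists, and its part in their medians was not tested.

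Among factors that act on the host transcripts, 5 of 17 nonsense-mediated decay genes were higher and 1 lower in OGD with the control virus, and 7 were higher and 1 lower with the knockdown-labelled virus, with medians of 0.55 and 0.76. Upf2, a core factor of this pathway, stood at 1.37 and 1.75. Of 12 regulators of TOP transcripts and mTOR, 3 were higher and 2 lower, then 7 higher and 1 lower, with medians of 0.29 and 1.60. Sesn2, an inhibitor of mTOR signalling induced by stress, had the largest ratio of this list with the control virus at 3.07 and stood at 2.76 with the knockdown-labelled virus. Of 24 protein-coding snoRNA hosts, 5 were higher and 0 lower, then 10 higher and 5 lower, with medians of 0.33 and 0.40, so protein-coding hosts stood on both sides with the knockdown-labelled virus. Of all genes, 11.6% were higher and 24.3% lower with the control virus, and 33.4% higher and 20.9% lower with the knockdown-labelled virus. Beside that 33.4%, the shares of decay genes and protein-coding hosts higher with the knockdown-labelled virus were close to the background. Here too the length trend was not removed. In the comparisons of the viruses these lists gave, in normal culture and then OGD, medians of -0.49 and 0.41 for paraspeckle proteins, -0.24 and 0.55 for speckle factors, 0.03 and -0.19 for snoRNP genes, -0.20 and 0.18 for decay factors, -0.05 and 0.63 for TOP regulators and 0.07 and -0.43 for protein-coding hosts, beside -0.27 and 0.26 for all genes.

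The split of all genes depended on the scaling between libraries. Median-of-ratios scaling brought the median of all genes to near 0 and gave 2047 genes higher and 2167 lower in OGD with the control virus, in place of 1422 and 2977, and 3227 and 3372 in place of 4092 and 2556 with the knockdown-labelled virus. For the labelled knockdown it gave 1290 and 800 in place of 572 and 1701 in normal culture, and 1150 and 899 in place of 1990 and 279 in OGD. Under it Snhg8 and Snhg6 passed 2-fold higher in normal culture (log2 ratios 1.30 and 1.10), and Snhg8 and Gas5 passed 2-fold lower in OGD (-1.23 and -1.03).

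**Figure D5:**
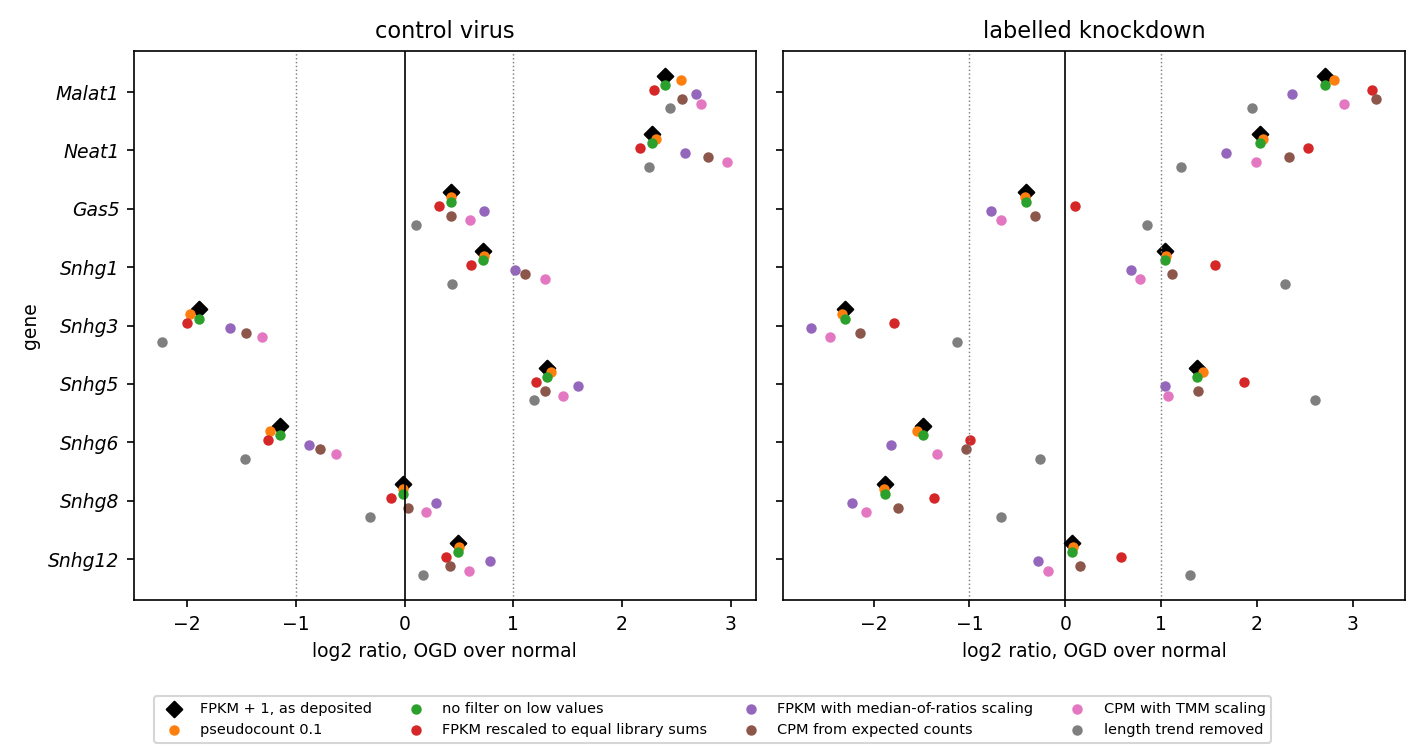
Log2 ratio, OGD over normal culture, of each detected transcript as deposited and under 7 alternatives of scaling, unit, filter, pseudocount and length trend, with the control virus (left) and the knockdown-labelled virus (right). Malat1, Neat1 and Snhg5 stay past 2-fold higher and Snhg3 past 2-fold lower in all of them, while Gas5 and Snhg12 cross 0 on the right and Snhg8 on the left. The alternative without a filter leaves each ratio as it is by construction.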

How the data were processed

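RNA sequencing of 4 HT22 libraries, 1 per group, was analysed. Groups were taken from the library titles. The submitters' processing notes name TopHat2 and mm10; the counting tool, annotation release and strand setting were not found in those notes. For each library the authors deposited, per the file headers, an expected count, an FPKM, a length and an effective length for 47069 genes. The expected counts were whole numbers as deposited by the authors, and every FPKM of at least 1 equalled the count divided by effective length and library total within 1%. The authors' deposited comparison tables hold a log2 fold change and a p-value with its adjusted p-value per gene, all listed p-values being at most 0.05; their 4 columns of values per library were not used.

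Symbols came from GENCODE M21, which matched 46488 identifiers. Log2 ratios of FPKM with a pseudocount of 1 were computed for the 12255 genes averaging 1 FPKM or more, and 2-fold was the size counted. Folds carry exact conditional binomial 95% intervals from the expected counts and effective lengths; ratios of folds carry normal intervals on the log scale. No test between conditions was made. The calculation was tested on simulated data. TMM factors came from edgeR 4.0.16; other steps used Python 3.11.15 with scipy 1.17.1. Named genes were the 10 members, up to 4 genes per list with the largest ratios, the 2 genes nearest in profile to each member and the nearest protein-coding start within 5000 bases. A gene that this rule names is not reported here. The 9 lists, the members and the alternatives were chosen with earlier results of these data known. The alternatives were another pseudocount, no filter, equal library sums, median-of-ratios scaling, CPM with and without TMM, and subtraction of a running median over genes ordered by length, with the all-gene median added back.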

Additional observations from a re-analysis of the deposited data

Results flagged for a closer look

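Gas5 and Snhg8 stood on opposite sides in the paired comparisons, with counting intervals that left out equality on both sides. The difference was not tested against replicates, since each group held 1 library. The log2 ratio of Gas5, labelled knockdown over control, was 0.13 in normal culture and -0.71 in OGD, and its ratio of OGD over normal culture was 0.43 for the control virus and -0.41 for the labelled knockdown. That of Snhg8, labelled knockdown over control, was 0.96 in normal culture and -0.91 in OGD. After removal of the length trend the ratios of the labelled knockdown were -0.61 and 0.08 for Gas5 and 0.22 and -0.14 for Snhg8.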

How the results depend on the processing

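Of 36 ratios of single transcripts, 14 were past 2-fold and 9 of these stayed past it under all 7 alternatives, while 25 kept their sign. The alternative without a filter could not change the ratio of a single transcript, so it was no check of these ratios. The host median minus the nuclear median for the labelled knockdown in OGD reversed from -0.68 to 0.52 after removal of the length trend; in normal culture it moved from -0.07 to -1.10. In OGD over normal culture it moved to -2.26 with CPM, with and without TMM, and to -2.24 without the length trend with the control virus (-1.92 as reported), and to -3.11 with CPM, -3.12 with TMM and -0.73 without the trend with the knockdown-labelled virus (-2.78). Transcripts at least 2-fold higher for the labelled knockdown in normal culture, 1 as reported, numbered 3 with median-of-ratios and 2 with TMM scaling, and those lower, 0 as reported, 1 without the trend. In OGD those higher, 1 as reported, numbered 2 with equal library sums, 0 with TMM and 3 without the trend, and those lower, 0 as reported, 2 with median-of-ratios and 1 with TMM. Those lower in OGD over normal culture numbered 1 in place of 2 with median-of-ratios, CPM and TMM (control virus). With the knockdown-labelled virus they numbered 2 in place of 3 with equal library sums and 1 without the trend. Those higher in OGD numbered 4 in place of 3 with median-of-ratios, CPM and TMM (control virus). With the knockdown-labelled virus they numbered 3 in place of 4 with median-of-ratios and TMM, and 5 without the trend. The cause was not tested.

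Over all genes the labelled knockdown gave 187 to 1290 higher and 800 to 3035 lower in normal culture across the alternatives (572 and 1701 as reported), and 1150 to 3163 higher and 95 to 899 lower in OGD (1990 and 279). OGD over normal culture gave 1245 to 2047 higher and 2167 to 3473 lower with the control virus (1422 and 2977), and 3227 to 5393 higher and 1476 to 3372 lower with the knockdown-labelled virus (4092 and 2556). No paired analysis was possible because each group held 1 library and the labels give no replicate numbers; a model with additive terms for virus and culture, which would take the difference between cultures as its error, was not run. Depth limits Snhg3 and Snhg6 most, at 81 and 108 counts in the control OGD library.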

Other observations

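Other noncoding transcripts of the lists had the following values. Among other snoRNA host transcripts, 8 of 11 in the files were compared, and with the control virus 2 were at least 2-fold higher and 1 lower in OGD (median log2 ratio 0.53), and with the knockdown-labelled virus 1 higher and 4 lower (-1.59). Of all genes 11.6% were higher and 24.3% lower with the control virus, and 33.4% higher and 20.9% lower with the knockdown-labelled virus. Taken over both directions together, the share of these hosts past 2-fold was near the background with both viruses. Split by direction, a larger share than the background was higher and a smaller share lower with the control virus. The reverse held with the knockdown-labelled virus, and each share rests on 8 genes. Snhg15 stood at 23.6 and 76.5 FPKM in normal culture, control before labelled knockdown, and at 170 and 120 in OGD. Snhg17 stood at 17.0 and 19.7 FPKM in normal culture and at 88.8 and 60.5 in OGD, and Snhg20 at 46.1 and 135 against 56.5 and 26.5. Snhg18, named here after its values were seen, stood at 9.97 and 10.9 against 1.61 and 1.60 FPKM. For the labelled knockdown, 4 of these 8 were higher and 0 lower in normal culture (median 0.85), and 0 higher and 3 lower in OGD (-0.76), where 4.67% and 13.9% of all genes were higher and lower in normal culture and 16.2% and 2.28% in OGD. Snhg9 was also named by the rule, on 1, 4, 2 and 0 counts. It is 1 of those counted as higher for the labelled knockdown in normal culture (2.09) and as lower in OGD (-2.87). It is also 1 of those lower in OGD over normal culture with the knockdown-labelled virus (-4.18). These shares of 8 therefore rest in part on very few counts. The length trend was not removed from the ratios of this list.

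Of other nuclear or regulatory noncoding RNAs, 8 of 18 in the files were compared. In OGD 1 was higher and 3 lower with the control virus (median -0.52), where 11.6% of all genes were higher and 24.3% lower. With the knockdown-labelled virus 4 were higher and 3 lower (0.56), where 33.4% of all genes were higher and 20.9% lower. For the labelled knockdown, 0 were higher and 1 lower in normal culture (-0.27), beside 4.67% and 13.9% of all genes. In OGD 1 was higher and 0 lower (0.27), beside 16.2% and 2.28%. The 3 lower in OGD, the same with both viruses, were RNA polymerase III transcripts. They were Rmrp, the RNA of RNase MRP, Rpph1, the RNA of RNase P, and Rn7sk, an inhibitor of transcription elongation. Rn7sk was named after its values were seen. The length trend was not removed from the ratios of this list, and a shared cause of the 3 lower values was not tested. Rmrp stood at 128 and 65.7 FPKM in normal culture and at 25.1 and 28.5 in OGD, on 252, 107, 51 and 49 counts. Rn7sk stood at 151 and 112 against 49.3 and 35.4 FPKM. Rpph1 stood at 18.97 and 13.4 against 4.26 and 2.52, on only 60, 36, 14 and 7 counts. Tug1 and Ftx went the other way, with Tug1 at 0.81 and 1.21 against 1.81 and 7.11 FPKM and Ftx at 0.19 and 0.11 against 1.16 and 2.99.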
